A study of Mus musculus with 15 samples.

Results

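The genes described here are 85 mouse genes that carry only a clone or prediction name and that were counted in kidneys of newborn Dnmt1 knockouts and almost absent from the controls. They were selected on measured values. A gene was taken when its symbol was Gm followed by digits or ended in Rik, when the 3 control RNA samples held at most 5 counts between them, and when each of the 3 knockout (KO) RNA samples held at least 20. The rule took 85 of 22214 genes with such a name, 0.383% of them, out of 46517 genes in the count files. The same count limits took 81 of 23791 genes with another symbol, 0.34%. With the groups exchanged, so that a gene had to be present in each control and almost absent from KO, no clone-named gene met the limits (0 of 22214, 0%). Of the 85, 81 were Gm names and 4 were Rik names.

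The study set kidneys of C57BL/6 mice at postnatal day 0 (P0) that were Dnmt1 f/f, the controls, beside Six2Cre Dnmt1 f/f kidneys of the same age, the KO group. Both P0 groups therefore carried the floxed Dnmt1 alleles, and only the KO group carried Six2Cre, a Cre recombinase that is active in the nephron progenitors and their descendants and not in the other kidney cells. RNA sequencing of polyadenylated RNA covered 3 controls and 3 KO samples. Reduced representation bisulfite sequencing (RRBS), which reads cytosine methylation in CpG-rich restriction fragments, covered 3 controls, 3 KO samples and 3 wild-type adults of 6 weeks. In the labels the source field reads Six2+ cells while the extraction was from entire kidneys, and they do not say whether the samples of a group came from separate animals, so p-values measure only the spread between these samples.

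Gm and Rik symbols are placeholders. A Gm symbol marks a gene model predicted by computer or by annotators, and a Rik symbol marks a cDNA clone of the RIKEN collection, and both are kept until a locus receives a name of its own. Many such loci are young copies in arrays of related genes, processed pseudogenes or long noncoding RNAs, and many are transcribed only in germ cells or in the embryo shortly after fertilisation. Dnmt1 copies the CpG methylation pattern onto newly made DNA at each cell division, and methylation is one of the layers that keep germline genes and retrotransposon-derived promoters silent in somatic tissue.

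Dnmt1 itself had 5908, 4826 and 6921 counts in the controls and 3526, 3378 and 2467 in KO. Its log2 fold change was -0.74 (SE 0.12, edgeR quasi-likelihood adjusted p = 0.00577), with every KO sample below every control. Gene counts per sample ran from 26773937 to 34102567. Markers of kidney cell types were present in all 6 RNA samples, with a summed level over 19 genes of 3832 to 5001 CPM, counts scaled to 1000000 per TMM-normalised library, in the controls and 1618 to 1889 in KO. Of these 19, 9 fell, among them Umod, Slc12a1, Slc34a1 and Lrp2, genes of differentiated tubules. The 4 that rose were the stromal gene Foxd1, the progenitor genes Osr1 and Eya1, and Ret of the ureteric bud tip. The progenitor genes Six2 and Cited1, on the same list, were not among those that rose. Of all tested genes, 8.23% were called lower in KO and 6.36% higher. The part of these marker changes in the results below was not tested. In such mixed samples fewer cells of a kind and less RNA per cell cannot be told apart. Markers of gonad, adrenal and germ cells summed to 14.04 to 25.3 CPM over 14 genes in the controls and 14.7 to 18.3 CPM in KO. Of these, 7 were tested and 1 rose, the germ cell helicase gene Ddx4, while Foxl2 and Dppa3 had no count in any sample. Blood and immune markers summed to 425 to 1319 CPM over 11 genes in the controls and 660 to 967 CPM in KO, with 1 of 10 tested genes higher, Ptprc.

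Of the 85 genes, 59 matched a gene of the RefSeq annotation on build GRCm38.p6, 52 by symbol and 7 by an older symbol, and 26 did not. The matched genes comprised 32 coding genes (54.2% of 59), 16 pseudogenes (27.1%) and 11 noncoding genes (18.6%). Among all 11270 clone-named genes that matched, 12.9% were coding, 44.2% pseudogenes and 42.9% noncoding. The mix among the 6050 matched clone-named genes with at least 1 count was nearly that of all of them, at 13.0%, 42.6% and 44.3%. These genes needed 1 count in any sample, whereas the 85 needed at least 20 in each KO sample. The mixes are thus set side by side at unlike count limits. Since 69.4% of the 85 matched, fewer than the 80% needed for a statement on the whole set, the class mix is given for the matched genes only.

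The 7 older symbols tie the genes to known families. Gm12794 is now Pramel19, Gm13078 is Pramel24, Gm13083 is Pramel21, Gm13119 is Pramel31 and B020004J07Rik is Pramel17, all members of the Prame-like family of leucine-rich repeat proteins found in oocytes, early embryos and testis. Gm4858 is Tdpoz8, of a family with TRAF and BTB/POZ domains that is transcribed in early embryos. Gm8994 is Eif4a3l1, a relative of the RNA helicase gene Eif4a3. The remaining coding genes were Gm21761, Gm20767, Gm11543, Gm4779, Gm364, 4930550L24Rik, Gm8300, Gm6803, Gm21818, Gm21319, B020031M17Rik, Gm11546, Gm11487, Gm14444, Gm4302, Gm14139, Gm4027, Gm7579, Gm9, Gm11545, Gm10439, Gm2016, Gm11756, Gm11544 and Gm11238. The pseudogenes were Gm5039, Gm8332, Gm6489, Gm13106, Gm2056, Gm32996, Gm12666, Gm8711, Gm6771, Gm9621, Gm2035, Gm17895, Gm371, Gm9113, Gm4870 and Gm2075. The noncoding genes were Gm43549, Gm31579, Gm1698, Gm7967, Gm14149, Gm20756, Gm13261, Gm11413, Gm12724 and Gm26760, all long noncoding RNAs, and the small nucleolar RNA gene Gm22622. Gm22622 spans only 59705746 to 59705874 on chromosome 6 and had 41, 28 and 54 counts in KO. Whether these reads came from a longer overlapping transcript was not tested. The genes with no match were Gm16572, Gm12800, Gm42860, Gm10040, Gm29084, Gm43414, Gm9864, Gm28940, Gm36954, Gm38279, Gm6502, Gm38226, Gm26870, Gm38246, Gm6507, Gm43535, Gm14742, Gm37375, Gm43049, Gm11815, Gm10424, Gm44380, Gm43836, Gm43108, Gm21542 and A430078G23Rik.

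Promoter sequences of 300 bases, from 250 before the first listed transcript start to 50 after it, were available from RefSeq (GRCm38.p6) for 35 of the 85 genes, 41.2%, so they describe those genes and not the whole set. The first to be shown are those of Gm12724, B020004J07Rik and Gm8994, which lie at 3 separate loci and share 1 sequence. They are Gm12724 at chr4:106236872-106237171 on the plus strand, B020004J07Rik at chr4:101843973-101844272 on the minus strand and Gm8994 at chr6:136327289-136327588 on the plus strand, each written 5′ to 3′ along its gene with CpG dinucleotides in capitals.
Gm12724: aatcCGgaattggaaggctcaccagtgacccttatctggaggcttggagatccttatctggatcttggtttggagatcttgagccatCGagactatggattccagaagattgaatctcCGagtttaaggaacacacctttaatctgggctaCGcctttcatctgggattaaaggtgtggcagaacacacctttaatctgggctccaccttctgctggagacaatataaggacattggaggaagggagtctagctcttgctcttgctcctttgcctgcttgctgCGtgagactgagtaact
B020004J07Rik: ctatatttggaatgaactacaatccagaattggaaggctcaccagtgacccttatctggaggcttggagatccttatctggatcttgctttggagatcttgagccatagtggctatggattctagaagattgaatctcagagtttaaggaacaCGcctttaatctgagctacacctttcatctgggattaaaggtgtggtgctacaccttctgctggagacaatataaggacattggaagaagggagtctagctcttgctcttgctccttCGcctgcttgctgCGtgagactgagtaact
Gm8994: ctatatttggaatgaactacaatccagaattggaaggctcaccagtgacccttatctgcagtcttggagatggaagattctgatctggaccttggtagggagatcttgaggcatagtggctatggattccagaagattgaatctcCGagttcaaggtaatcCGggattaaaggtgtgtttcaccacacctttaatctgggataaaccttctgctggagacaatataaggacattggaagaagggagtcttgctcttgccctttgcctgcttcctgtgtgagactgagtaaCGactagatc
Aligned end to end, the first and the second were 83.4% identical, the second and the third 78.6%, and the first and the third 71.9%. Over 584 pairs of member promoters that do not share a chromosomal group, these included, the median identity was 49.6%.

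The same sequence recurred beyond these genes. In a search of 32851 promoter entries, counting a local alignment of at least 150 columns and 70% identity on the same strand as similar, a search chosen after the data were seen, the promoters of 29 further genes on a range of chromosomes resembled 1 or more of these 3. Of those, 20 were in the count files, 13 had at most 5 control counts and 5 of the 13 had a count in each KO sample. No share over all genes with so few control counts stands beside these numbers, so they do not set these promoters apart. Among the 5 was Gm12790, with no control count and 17, 13 and 20 KO counts, which passed the test (log2 fold change 7.18, edgeR adjusted p = 0.00379). It was the only 1 of the 8 tested that did. Sgk1 and Arih2, with further listed starts and many counts in every control, were among the others. Gm21293 on chromosome 10, whose promoter was 87.8% identical to that of B020004J07Rik, had 3, 8 and 7 counts in KO, and Gm4340 had 70, 1 and 4. Gm21304, Gm21312, Gm20765 and Gm8764, copies on the same chromosome with 87.8% or 87.9% identity, had no count in any sample. So a promoter of this kind occurred with and without reads. Reads with more than 1 alignment entered no gene count, and their part in the zeros was not tested.

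The next pair comes from an array on chromosome 11, with Gm11543 at chr11:94829291-94829590 and Gm11546 at chr11:94798162-94798461, both on the minus strand. It shows how close members of 1 array can be while holding almost no CpG.
Gm11543: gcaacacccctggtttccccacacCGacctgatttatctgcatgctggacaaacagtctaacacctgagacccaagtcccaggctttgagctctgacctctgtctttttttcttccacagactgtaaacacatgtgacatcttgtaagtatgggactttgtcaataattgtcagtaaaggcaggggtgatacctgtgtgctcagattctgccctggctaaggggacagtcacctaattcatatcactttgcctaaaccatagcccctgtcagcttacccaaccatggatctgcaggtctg
Gm11546: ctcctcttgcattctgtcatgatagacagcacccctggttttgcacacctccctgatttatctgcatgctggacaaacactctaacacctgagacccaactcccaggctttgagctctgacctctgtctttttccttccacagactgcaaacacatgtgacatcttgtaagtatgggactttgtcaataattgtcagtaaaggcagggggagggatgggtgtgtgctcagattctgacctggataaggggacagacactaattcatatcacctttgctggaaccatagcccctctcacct
Their best local alignment of 277 columns was 89.9% identical. Gm11543 had 374, 295 and 384 counts in KO and Gm11546 had 74, 49 and 80, so the order over KO samples was the same in both.

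The third set holds promoters whose own CpGs were read by RRBS. They are Gm4779 at chrX:101794396-101794695 on the minus strand, Gm31579 at chr6:50906156-50906455 on the plus strand and Gm14139 at chr2:150181505-150181804 on the plus strand.
Gm4779: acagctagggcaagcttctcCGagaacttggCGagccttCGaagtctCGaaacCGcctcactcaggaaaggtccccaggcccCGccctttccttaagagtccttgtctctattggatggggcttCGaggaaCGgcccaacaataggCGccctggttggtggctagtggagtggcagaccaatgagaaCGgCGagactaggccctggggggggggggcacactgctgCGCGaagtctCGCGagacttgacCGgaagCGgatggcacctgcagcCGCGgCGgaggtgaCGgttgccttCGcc
Gm31579: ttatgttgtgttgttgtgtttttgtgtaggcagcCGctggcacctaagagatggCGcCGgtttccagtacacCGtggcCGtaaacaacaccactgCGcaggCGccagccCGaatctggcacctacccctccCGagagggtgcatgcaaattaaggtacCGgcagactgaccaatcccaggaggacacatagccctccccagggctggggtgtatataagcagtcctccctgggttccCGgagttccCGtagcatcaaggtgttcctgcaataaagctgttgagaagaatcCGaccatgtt
Gm14139: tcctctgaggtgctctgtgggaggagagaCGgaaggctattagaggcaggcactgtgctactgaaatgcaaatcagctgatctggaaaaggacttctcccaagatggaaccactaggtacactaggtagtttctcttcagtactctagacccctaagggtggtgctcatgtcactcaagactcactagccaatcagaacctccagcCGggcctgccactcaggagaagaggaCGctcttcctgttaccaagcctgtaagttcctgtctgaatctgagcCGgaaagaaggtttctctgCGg
Gm4779 held 22 CpGs, the most of the 35, Gm31579 held 13 and Gm14139 held 5. The values for these windows are given with the methylation results.

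Across the 35 promoters the number of CpGs ran from 0 to 22 with a median of 3, while the median of 27025 promoters was 7. At least 10 CpGs were found in 4 of the 35 (11.4%), Gm4779, Gm14149, Gm31579 and Gm364, and in 43.9% of all promoters. Gm11546, Gm13083, Gm1698 and Gm4858 had none. GC content had a median of 46.7% against 52.7% for all. Searched on both strands, the letters CACGTG, the E-box hexamer, were present in 1 of the 35, Gm364, and in 7.24% of all. TGACG, contained in the cyclic AMP response element, was present in 6 (17.1%) and in 21.0% of all. GCGGGA, contained in E2F sites, was present in none of the 35 and in 20.02% of all. TATAAA was present in 6 (17.1%) and in 14.2% of all. The E-box, cyclic AMP response element and E2F motifs each contain a CpG, and the last motif does not. The shares of the motifs with a CpG are therefore not separate from the CpG numbers given first. The part of the CpG numbers in these shares was not tested. A match or its absence describes the letters of these windows only.

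In the controls, 48 of the 85 genes had no count at all, 16 had 1 count and 21 had 2 to 5. Summed over the 85, controls 1 to 3 held 24, 23 and 46 counts, and KO 1 to 3 held 11197, 9353 and 11644. Scaled to the TMM-normalised library sizes this was 0.731, 0.744 and 1.25 CPM in the controls and 348.9, 306.6 and 442.5 CPM in KO. The rule fixed the separation of the groups, so these values and the fold changes below describe the genes and test nothing. In the edgeR fit over 18132 genes all 85 were called higher in KO, where 6.36% of all tested genes were called higher. Their log2 fold changes ran from 4.06 to 12.39 with a median of 8.26, and the median over all tested genes was -0.000738. Of 2669 clone-named genes tested in that fit, 224 were higher, the 85 among them, and 85 were lower.

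**Figure D1:**
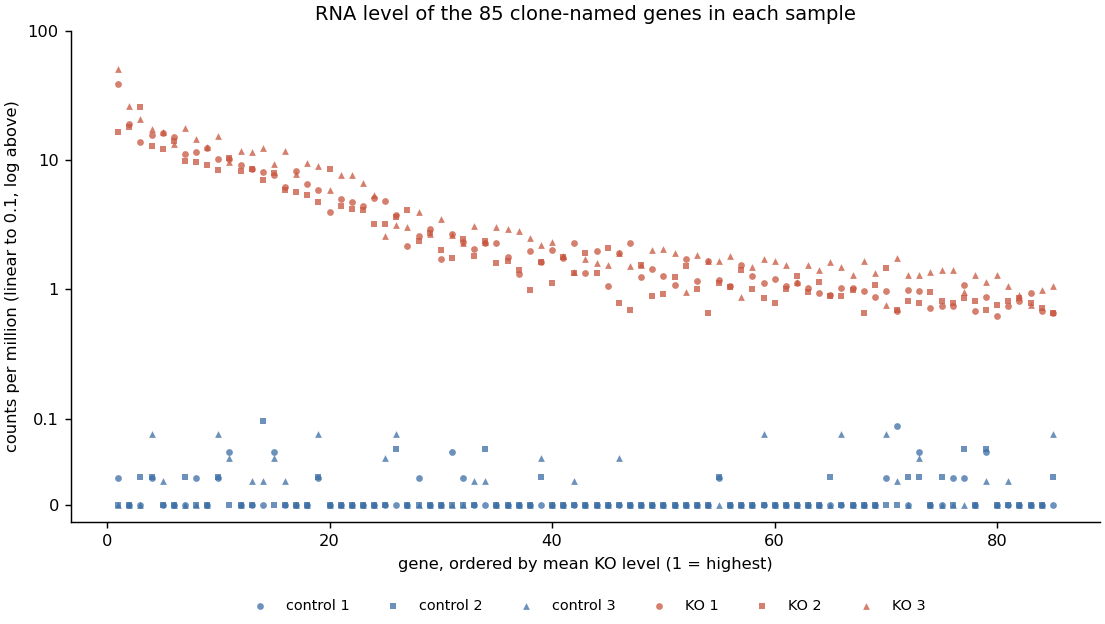
Each column is 1 of the 85 genes, ordered by mean KO level, and each point is 1 RNA sample, with normalised CPM on an axis that is linear to 0.1 and logarithmic above. KO means ran from 0.791 to 35.4 CPM, and the controls stay near 0 by the rule that chose the genes.

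Mean KO levels ran from 0.791 to 35.4 CPM with a median of 1.65, and the 10 highest genes held 46.3% of the KO counts of the set. Counts rise with transcript length and are not per length here, so the order below is one of counts. The median KO level was 3.06 CPM for the coding genes, 1.496 for the pseudogenes, 1.42 for the noncoding genes and 1.49 for those with no match.

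Gm21761 (ENSMUSG00000096175.3, chromosome 13, 119912035 to 119913468), a coding gene next to Tcstv1, had 1, 0 and 0 counts in the controls and 1244, 506 and 1338 in KO. Its mean KO level was 35.4 ± 17.4 CPM (SD, n = 3), with KO 2 well below the others. Gm13119 (ENSMUSG00000070619.5, chromosome 4, 144357964 to 144364419), the Prame-like gene Pramel31, had no control count and 619, 554 and 692 in KO. At 21.2 ± 4.41 CPM (SD, n = 3) it was at least 236-fold higher than a floor of 3 counts per control library. The other Prame-like genes among the 85 lay below it. Gm12794 (chromosome 4, 101940407 to 101943183) had 0, 0 and 1 control counts and 526, 375 and 440 in KO, 15.1 ± 2.47 CPM (SD, n = 3). Gm13078 (chromosome 4, 143719451 to 143729158) had no control count and 486, 431 and 353 in KO, at least 158-fold above the floor. Gm13083 had no control count and 163, 98 and 143 in KO, and B020004J07Rik had 1, 0 and 0 in the controls and 84, 73 and 105 in KO.

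Gm20767 (chromosome 13, 120140246 to 120155335) had 0, 1 and 0 control counts and 448, 789 and 551 in KO. Here KO 2 was the highest sample, the reverse of Gm21761. Gm16572, which had no match, had 1, 1 and 3 control counts and 507, 395 and 460 in KO, and lay at the control limit of 5. Gm5039 (chromosome 12, 88320122 to 88321762), a transcribed pseudogene, had 0, 1 and 0 control counts and 359, 302 and 469 in KO. Gm11543 (chromosome 11, 94827679 to 94831986) had 1, 0 and 0 control counts beside the KO counts given above. Gm12800, with no match, had no control count and 401, 282 and 336 in KO, at least 128-fold above the floor. In every one of these genes the groups lay far apart, as the rule required.

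Coding genes on chromosome X were also among the higher ones. Gm4779 (chromosome X, 101790332 to 101794468) had 1, 1 and 3 control counts and 328, 255 and 403 in KO. Gm364 (chromosome X, 57400767 to 57488773) had no control count and 295, 253 and 310 in KO, at least 108-fold above the floor. 4930550L24Rik (chromosome X, 58909356 to 58920305) had 0, 0 and 1 control counts and 276, 260 and 304 in KO. Gm8994, the helicase relative Eif4a3l1 (chromosome 6, 136327539 to 136329983), had 2, 0 and 2 control counts and 327, 317 and 256 in KO, 10.1 ± 0.340 CPM (SD, n = 3), 1 of the narrowest spreads among the higher genes.

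Just inside the KO limit lay A430078G23Rik with 21, 20 and 28 KO counts, Gm10439 with 31, 20 and 44, and Gm11756 with 20, 23 and 34. Just outside lay Gm12888 with 19, 36 and 25, Gm38271 with 32, 22 and 19, and Gm6468 with 21, 31 and 19, all with no control count. At the control limit of 5 counts stood Gm16572, Gm26760 and Gm29084, and just outside it Gm29562 with 6 control counts, Gm16570 with 7 and Gm773 with 7. Gm16570 had 616, 540 and 587 KO counts, a sum that only Gm21761, Gm13119 and Gm20767 exceeded among the 85. The limits therefore fall within a continuous range of counts.

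The rule could be read in a sample it had not used only for the genes it added when that sample was dropped, since each of the 85 meets the shorter rule by construction. Chosen without KO 1, 3 further genes met the limits, and their lowest count in KO 1 was 15. Without KO 2 there were 16 further genes, with a lowest count of 1 in KO 2, and without KO 3 there were 5, with a lowest count of 7 in KO 3. Each of these added genes thus had at least 1 count in the sample left out, and fewer than the 20 that the full rule asks for.

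The 85 genes did not keep a common level over the KO samples. The coefficient of variation over the 3 KO samples had a median of 28.8%, from 1.85% for Gm31579, with 73, 72 and 61 counts, to 58.9% for Gm2016, with 22, 21 and 46. For the other genes called higher in KO the median was 16.2%, over genes with a wider range of counts. KO 2 was the lowest sample for 49 of the 85 and the highest for 10, and KO 3 was the highest for 61 and the lowest for 10. The level in KO 2 relative to the mean of KO 1 and KO 3 had a median of 0.743 over the 85, 0.936 over the other genes called higher and 0.9998 over all tested genes. The ratio was not uniform, from 0.360 for Gm14444, with 74, 21 and 40 counts, to 1.73 for Gm21818, with 128, 261 and 156.

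On the chromosomes, 29 of the 59 located genes lay in 7 groups in which each gene was at most 500000 bases from the next. Reads of near-identical copies cannot be assigned with certainty, so the level of a single gene in these groups is uncertain although only uniquely aligned reads were counted. Reads aligned more than once made up 16.1%, 24.6% and 13.97% of all reads in controls 1 to 3 and 26.1%, 22.5% and 28.0% in KO 1 to 3. Their part in the levels was not tested.

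The widest and most populated group was on chromosome 12, from 87514316 to 88321762, with 10 of the genes, 5 coding and 5 pseudogenes. This stretch is known for copies related to the translation initiation factor gene Eif1a. Together its 10 genes had 3, 1 and 2 control counts and 1252, 1082 and 1676 in KO. Gm5039 and Gm8300 had the highest levels, and Gm8300 (chromosome 12, 87514316 to 87518265) had 0, 0 and 1 control counts and 198, 181 and 311 in KO. KO 3 had the highest level for each of these 10 but Gm2075. Among 8 other counted genes in the stretch, BB287469 and Gm5662 were called higher and the others were not tested. BB287469 had no control count and 46, 53 and 77 in KO, and its promoter was 99.6% identical to that of the member Gm4027 over 259 columns.

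A Prame-like group lay on chromosome 4 from 143615003 to 144364419 and held Gm13083, Gm13078, the pseudogene Gm13106 and Gm13119. They had no control count between them, and 1362, 1167 and 1259 in KO. Gm13119 and Gm13078, described above, had the highest levels. Among 22 other counted genes in the stretch, Pramef25, Pramef6 and Pramef17 were called higher and the others were not tested. The promoter of Pramef6, listed by RefSeq as Pramel11, was 87.0% identical to that of Gm13078. B020004J07Rik and Gm12794 formed a second Prame-like group on the same chromosome, from 101834969 to 101943183, with 610, 448 and 545 KO counts.

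On chromosome 13, from 119912035 to 120173892, lay Gm21761, B020031M17Rik, Gm20767 and Gm21818, between the 2-cell-stage genes Tcstv1 and AF067061. The promoter of Gm21761 was 90.3% identical to that of AF067061 over all 300 bases. This group split over the KO samples. KO 2 had the lowest level for Gm21761 and the highest for B020031M17Rik (70, 126 and 80 counts), Gm20767 and Gm21818. Tcstv1 followed those 3, with 329, 530 and 395 counts and none in the controls. Zscan4f, a 2-cell-stage gene on another chromosome, followed the order of Gm21761, with 997, 436 and 1140.

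Further groups were smaller. On chromosome 11, from 94755129 to 94849593, lay Gm11545, Gm11546, Gm11543 and Gm11544, which had 1, 1 and 1 control counts and 501, 396 and 535 in KO. Between them sat Tmem92 and AA623943, both with no control count and both higher, with 439, 403 and 499 counts and 78, 61 and 79 counts. On chromosome 4, from 73401032 to 73920716, Gm11487, Gm11238 and Gm11756 had no control count and 99, 96 and 138 in KO. Among 12 other counted genes there, Gm428, Gm11236 and Rasef were called higher and the others were not tested. Gm11487 had the most counts of the group, 57, 51 and 78, and Gm11756 had those given above. On chromosome 10, from 100340836 to 100356888, Gm4302 and the pseudogene Gm8711 had 96, 101 and 89 KO counts between them and none in the controls. Coefficients of variation over the KO samples differed within groups as well as between them. The chromosome 10 pair and the Prame-like genes Gm13078 and Gm13106 had 2.27% to 12.1%, but the other 2 genes of that Prame-like group had 20.7% (Gm13119) and 26.1% (Gm13083), inside the range on chromosome 12 of 11.4% for Gm2075 to 58.9% for Gm2016.

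**Figure D2:**
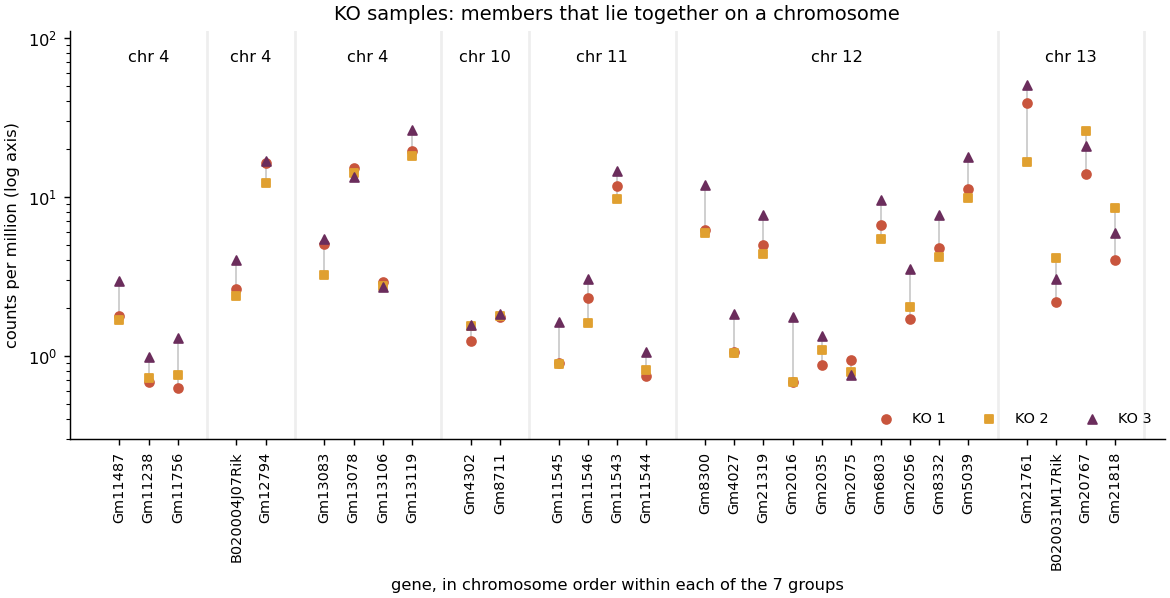
Each column is a member gene of 1 of the 7 chromosomal groups, in chromosome order, and each point is a KO sample, with normalised CPM on a log axis. KO 3 is highest for 9 of the 10 genes on chromosome 12, and on chromosome 13 KO 2 is lowest for Gm21761 and highest for the other 3.

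Genes that were near the members but were not among them were asked the same question. Within 100000 bases of a member lay 178 other counted genes, of which 21 were called higher in KO (11.8%), against 2.89% of the 34528 located genes outside the set. Shares of tested genes are not used for this, because a gene with almost no control count entered the test only through its KO counts. All 142 located genes outside the set that had at most 5 control counts and entered the test were called higher. Among the 45 tested neighbours with at least 10 counts in every control, 3 were higher (6.67%), against 4.14% of all tested genes with that many. These 3 were Sptssb, with 81, 141 and 175 control counts and 1331, 428 and 265 in KO, Frmd3 and Rasef, and each lost its call when 1 or more single samples were left out. The other 18 higher neighbours had fewer than 10 counts in 1 or more controls, and 11 of the 21 met the count limits of the rule themselves. Of the 65 neighbours tested, 2 were lower, Galnt9 and E330021D16Rik, against 8.23% of all tested genes. Within 20000 bases 7 of 44 counted genes were higher (15.9%).

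The neighbours with the smallest p were largely named members of the same arrays. Pramef25, a Prame-like gene 17447 bases from Gm13106, had 0, 1 and 1 control counts and 1094, 904 and 942 in KO (log2 fold change 10.44, SE 0.35, edgeR adjusted p = 6.62e-06). AF067061 had no control count and 761, 843 and 773 in KO. 8030474K03Rik, 86 bases from Gm4779, had 5, 8 and 2 control counts and 415, 395 and 495 in KO (log2 fold change 6.59, SE 0.44, edgeR adjusted p = 9.81e-05), and so missed the rule by its control counts alone. The remaining 7 of the first 10 by p were Tmem92, Tcstv1, Gm5662, Pramef6, AA623943, the homeobox gene Rhox2a and D13Ertd608e. Rhox2a, of the X-linked reproductive homeobox cluster, lay 33951 bases from Gm9 and had no control count and 63, 61 and 72 in KO.

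The count was also taken by whether the nearest member was grouped. Where the nearest member belonged to a chromosomal group, 16 of 79 counted neighbours were higher (20.3%), and where it did not, 5 of 99 were (5.05%), namely 8030474K03Rik, Rhox2a, Tdpoz3, Crct1 and Sptssb. With at least 10 counts in every control the numbers were 2 of 13 (15.4%) and 1 of 32 (3.12%). The difference between these shares was not tested.

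**Figure D3:**
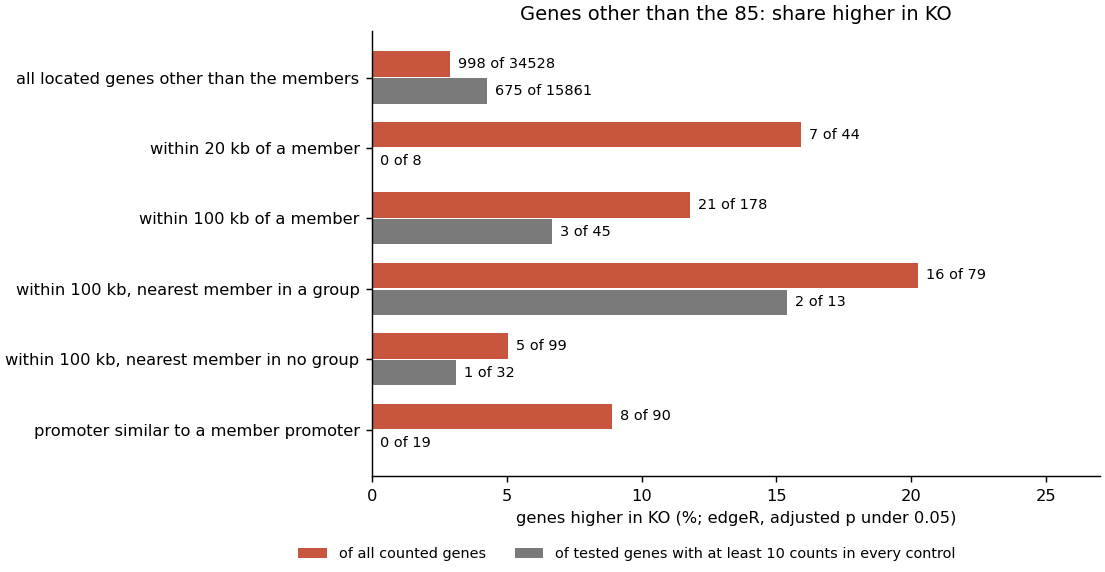
Bars give the percentage of genes other than the 85 that edgeR called higher in KO at an adjusted p under 0.05, over all counted genes (red) and over tested genes with at least 10 counts in every control (grey), with the counts beside each bar. Over counted genes the share is 2.89% for all located genes, 11.8% within 100 kb (100000 bases) of a member and 8.89% for genes with a similar promoter, while the grey bars rest on few genes and reach 0% within 20 kb and for similar promoters.

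A search for similar promoters reached beyond the neighbours. For 24 of the 35 member promoters at least 1 similar promoter of another gene was found, for 13 of them on another chromosome. Of 128 genes outside the set with such a promoter, 90 were in the count files and 8 of those were called higher (8.89%), against 2.89% of located genes, and none was lower. None of the 19 with at least 10 counts in every control was higher, so the 8 were genes with few control counts. The 8 were AF067061, BB287469, Pramef6, AA623943, Gm428, Gm12790, Zfp345 and E330020D12Rik. The first 6 also lay within 100000 bases of a member. Zfp345, a zinc finger gene whose promoter was 97.8% identical to that of Gm14139, had 2, 2 and 2 control counts and 28, 35 and 32 in KO (log2 fold change 4.08, edgeR adjusted p = 0.000647). Gm14139 had 31 genes with a similar promoter, of which 14 were tested and Zfp345 alone was higher. E330020D12Rik, on chromosome 1, had a promoter 85.3% identical to that of Gm31579 on chromosome 6, with 4, 2 and 0 control counts and 30, 20 and 14 in KO (edgeR adjusted p = 0.0130). That call was lost without KO 1 (adjusted p = 0.0649).

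Germline, 2-cell-stage and transposon silencer gene lists were chosen with earlier results of these data known. They differ in control counts, so their shares cannot be set beside each other. Of 30 germline genes counted 22 were higher and none lower. Of the 22, 13 had at most 5 control counts and so entered the test only through their KO counts. Among the 8 genes with at least 10 counts in every control 3 were higher, Ddx4, Smc1b and Stag3. Of all tested genes with that many, 4.14% were higher. Tuba3a, a testis tubulin gene, had 2, 1 and 0 control counts and 1585, 1790 and 1746 in KO. Sohlh2, a germ cell transcription factor gene, had 0, 0 and 1 and then 1121, 1110 and 1298. Of 25 counted genes of the 2-cell-stage list 18 were higher and none lower, all 18 with at most 5 control counts. The 2 tested genes of that list with more, Sp110 (edgeR adjusted p = 0.284) and Pramef12 (0.451), were not called. Zscan4d had 2, 0 and 0 control counts and 1865, 1140 and 2014 in KO. Of 17 tested genes of the transposon silencer list, all with at least 10 counts in every control, none was higher and 1, Dnmt1, was lower, with a median log2 fold change of 0.12 against -0.000738 over all tested genes.

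RRBS used other libraries and another assay than the rule. A region was taken as the annotated gene with 1000 bases on each side. Of the 59 located genes, 50 had at least 1 call in some sample, 27 had a call in each of the 6 P0 samples, and 18 had at least 10 calls in each of them and in each adult. None of the 29 genes in the chromosomal groups was among the 18, so the arrays have no methylation result here. Methylation is the percentage of calls in the region that were methylated, and it covers gene bodies as well as starts. The samples did not all read the same positions within a region.

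In the edgeR fit of methylated and unmethylated calls over 31140 gene regions, 15 of the 18 were lower in KO and none was higher. Of all regions tested 57.7% were lower and 321 were higher. Every KO sample lay below every control in 15 of the 18, and in 61.6% of all regions. The change had a median of -24.1 percentage points over the 18, from -59.6 for Gm26760 to -12.1 for Gm14149, and a median of -11.8 over all regions.

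The 18 regions were heavily methylated to begin with. Their control means had a median of 84.97%, from 65.5% to 96.9%, against a median of 46.5% over all regions. The 10717 other regions with a control mean in the same range changed by a median of -25.0 points, and 90.3% of them were lower in KO. The share of control methylation that was lost had a median of 29.6% in the 18 and 30.5% in those other regions. Set beside regions of like control methylation, then, the 18 lost about as much as the rest.

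**Figure D4:**
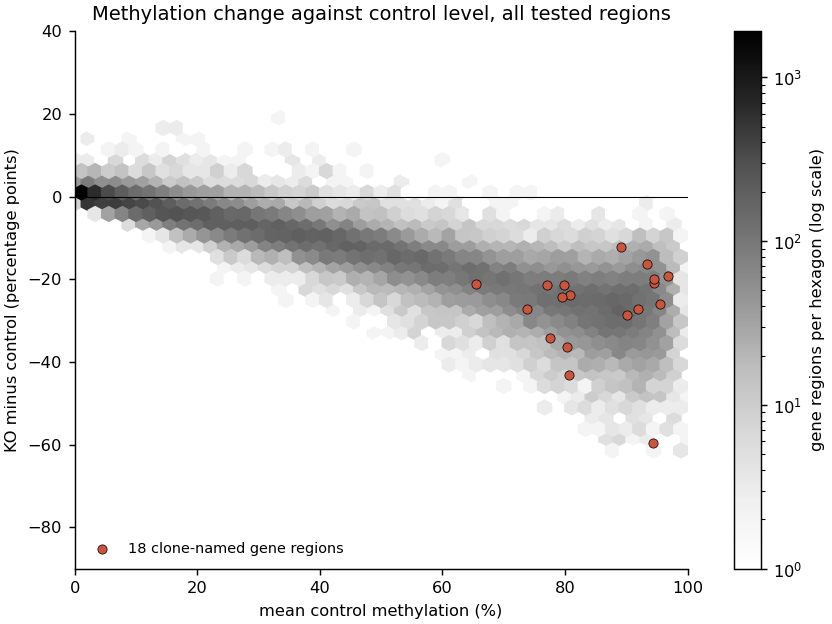
Shading counts all 31140 tested gene regions by mean control methylation and by KO minus control in percentage points, on a log colour scale, and each red point is 1 of the 18 clone-named gene regions. The 18 points lie at 65.5% to 96.9% control methylation, within the spread of other regions at that level, with Gm26760 at -59.6 points near its lower edge.

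The long noncoding RNA gene Gm26760 on chromosome 15 had the largest decrease. Its region, 92343359 to 92379088, was methylated at 100%, 91.7% and 91.3% in controls and at 48.0%, 19.6% and 36.5% in KO (edgeR adjusted p = 0.000326, 15 to 75 calls per sample). KO 2 was the lowest sample, and the adults stood at 76.9%, 88.1% and 84.5%. Controls 1 to 3 read 5, 9 and 6 positions in this region and KO 1 to 3 read 19, 13 and 14. The groups therefore do not rest on the same positions, and the part of this in the decrease was not tested. In RNA this gene was near the limits of the rule, with 2, 2 and 1 control counts and 28, 21 and 30 in KO.

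The pseudogene Gm17895 on chromosome 3, region 69953808 to 69956682, fell from 88.9%, 68.1% and 84.8% to 37.3%, 35% and 40% (edgeR adjusted p = 0.00437). The noncoding gene Gm1698 on chromosome 8, region 27581692 to 27621453, fell from 78.9%, 85.3% and 76.9% to 50.6%, 47.4% and 34.4% (edgeR adjusted p = 0.00423). Gm20756, noncoding, on chromosome 6, region 25930426 to 25978227, fell from 84.6%, 81.1% and 66.7% to 50%, 37.0% and 43.1% (edgeR adjusted p = 0.00115). In these 3 the KO values lay far below the lowest control, on 15 to 281 calls per sample. KO samples also read more positions in Gm1698 (18, 9 and 10, against 4, 8 and 7 in controls). The same held for Gm20756 (15, 10 and 7 against 4, 3 and 4), but not for Gm17895 (3, 4 and 2 against 3, 3 and 3). Gm364 on chromosome X, with 282 to 1233 calls per sample, fell from 88.2%, 91.9% and 90.4% to 72.9%, 46.4% and 64.9% (edgeR adjusted p = 4.21e-05). Here too KO 2 was the lowest sample.

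Among the most methylated regions in controls, changes differed. Gm43549, noncoding, on chromosome 3, fell from 92.7%, 97.9% and 100% to 67.5%, 86.9% and 78.4%. Gm11413, noncoding, on chromosome 4, fell from 95.6%, 94.3% and 96.8% to 72.0%, 67.4% and 69.4%. Gm7967, noncoding, on chromosome 1, fell from 90.6%, 97.3% and 95.6% to 84.0%, 60.4% and 76.8%. All 3 passed the test, and even their lowest KO sample kept at least 60.4% methylation. Gm26760, in the same range of control levels, fell far lower, as given above.

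At the low end of control methylation stood the pseudogene Gm32996 on chromosome 5, which fell from 64.7%, 61.9% and 69.8% to 42.2%, 52.2% and 38.5% (edgeR adjusted p = 0.00491). Gm9, in the Rhox stretch of chromosome X, had 83.8%, 79.8% and 58.1% in controls and 72.6%, 45.6% and 21.95% in KO, where the groups overlap and the test was not passed (edgeR adjusted p = 0.0724). Gm10439, also on chromosome X, had 78.6%, 91.7% and 61.1% against 56.5%, 67.5% and 42.9% (edgeR adjusted p = 0.175), with as few as 14 calls. The third region that was not called was Gm14149, at 90%, 88.05% and 89.3% in controls and 75.2%, 68.6% and 87.2% in KO (edgeR adjusted p = 0.0746).

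The calls near the threshold rested on single samples. Gm8994 had 84.9%, 72.1% and 85.5% in controls and 44.4%, 43.0% and 83.3% in KO (edgeR adjusted p = 0.0228), with KO 3 at the control level. It was no longer called without control 1, control 3, KO 1 or KO 2, with adjusted p from 0.0630 to 0.110. Gm9 was called without control 3 (0.0421) or KO 1 (0.0154), and Gm14149 without KO 3 (0.0363). The labels do not say that RNA and RRBS samples of the same number share an animal, so samples were not matched between the assays.

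**Figure D5:**
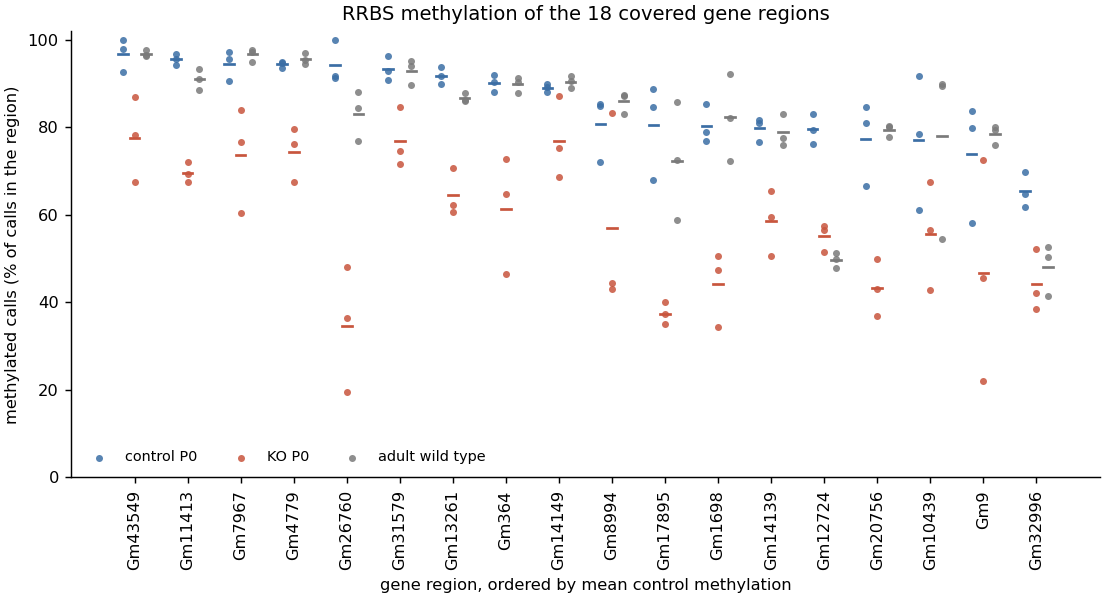
Each column is 1 of the 18 covered gene regions, ordered by mean control methylation, each point is 1 RRBS sample as the percentage of methylated calls, and the bars are group means. KO samples lie below all controls in 15 of the 18, the groups overlap in Gm8994, Gm9 and Gm10439, and in Gm12724 and Gm32996 the adults lie near the KO samples.

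Averaged over the 18 regions, KO was 26.8 points below control, written as -26.8 for KO minus control. Adults differed from controls by -3.24 points. In 5 of the 18 regions all 3 adults lay under all 3 controls, and in the other 13 the groups overlapped. No share over all regions stands beside this count, so it does not set the 18 apart from other regions. Over all RRBS calls, 48.5% to 51.3% were methylated in controls and 43.1% to 44.8% in adults. The 2 with the widest gap, singled out after their values were seen, were Gm12724 and Gm32996. Gm12724 had 51.4%, 50% and 47.8% in adults, below the controls at 83.1%, 76.2% and 79.4% and below the KO samples at 57.5%, 51.5% and 56.6%. Gm32996 had 52.7%, 50.4% and 41.5% in adults, below every control. In Gm26760, Gm13261 and Gm11413 the lowest control lay 0.885 to 3.21 points above the highest adult. No test of these differences was run. Age, sex, genotype and the floxed alleles cannot be told apart between these groups.

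Fewer genes had calls near their start. Windows reached 1000 bases to each side of the annotated start. Where no promoter was listed, as for Gm17895 and Gm32996, they were laid around both gene ends. In these windows 10 members had at least 10 calls in each P0 sample. Of the 10, 9 were lower in KO, where 18% of 24003 gene starts taken in this way were. The exception was Gm32996 (edgeR adjusted p = 0.0854). The control median of these 10 was 92.9%, against 4.06% over all starts, and the median change was -22.5 points against -0.669. Most gene starts are unmethylated in any tissue, so the background share here is that of starts with little to lose. Gm17895 changed most, by -43.2 points, but its windows joined into its whole gene region. Among the members with a listed start, Gm11413 changed most, by -28.8 points, and Gm31579 least, by -15.9.

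Inside the printed promoter windows themselves, 4 of the 35 reached 10 calls in every P0 sample. In the window of Gm31579, with 83 to 320 calls, controls had 96.4%, 90.8% and 92.8%, KO samples 71.6%, 74.7% and 84.3% and adults 96.1%, 89.7% and 94.0%. In the window of Gm14139, with 108 to 454 calls, controls had 84.2%, 78.0% and 82.1% and KO samples 61.8%, 46.4% and 65.7%. In both every KO sample lay below every control. In the CpG-rich window of Gm4779, with 68 to 147 calls, controls had 92.6%, 89.1% and 100% and KO samples 61.6%, 87.5% and 94.4%, so the groups overlap there. KO 1 alone was well below the controls, although in the wider region of Gm4779 all 3 KO samples were, at 67.5%, 76.3% and 79.6% against 93.7% to 95.1%. In the window of Gm13261, not printed, controls had 92.5%, 87.2% and 82.9% and KO samples 51.4%, 53.5% and 95.0%, with KO 3 above every control. No test was run on these windows.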

How the data were processed

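The authors deposited, for 6 RNA samples, raw read counts per Ensembl gene and, for 9 RRBS samples, a methylation percent with methylated and unmethylated call counts per cytosine position. The submitters' processing notes name Trim Galore, Bismark, STAR 2.4.1d, HTSeq 0.6.1 and builds mm10 and GRCm38, and the gene annotation and the strand setting of the counting are not given in the sources used here, so reads of overlapping antisense genes cannot be told apart. Lines of unassigned reads, 22.9% to 35.8% of all reads, were left out.

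The members and all lists were chosen with earlier results of these data known. Symbols, classes, positions and promoters came from RefSeq tables of GRCm38.p6. Counts were fitted with the edgeR 4.0.16 quasi-likelihood test in R 4.3.3 (TMM, filterByExpr, Benjamini-Hochberg adjustment over all tested genes, threshold 0.05). Calls were summed over each gene with 1000 bases on either side, requiring 10 calls in every P0 sample, and methylated and unmethylated sums were fitted with edgeR over all regions. On simulated data the RNA fit recovered 93% of 200 genes changed 4-fold among 18194, and called 10 unchanged genes. The region fit recovered 94.1% of 5000 regions lowered by 25 points among 31140, and called 229 unchanged regions. Simulated samples differed less than KO samples did in regions such as Gm364, with a KO SD of 13.6 points. The recovery does not carry over to such regions. CPM values use TMM library sizes. RRBS samples held 18424875 to 88765177 calls, with KO 3 the shallowest, and at 10 calls a region's percentage is coarse. Promoters were aligned with Biopython 1.88.

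The genes named were Dnmt1, the 10 members and the 8 coding members with the highest KO level, the 2 highest in each group of at least 3, the extremes of spread and of methylation, the 3 genes on each side of each threshold, and the 10 neighbours and the list genes with the smallest p. Others were named after their values were seen. The shares over counted genes and over genes with at least 10 counts in every control were also chosen after the data were seen. Alternatives were other limits, scalings, tools, filters, windows, distances, a replicate block and each replicate left out.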

Additional observations from a re-analysis of the deposited data

How the results depend on the processing

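The number of clone-named genes that the rule chose was 48 with no control count allowed, 137 with a KO minimum of 10 and 36 with a minimum of 50. Leaving out 1 sample gave 88 to 101, which hold the 85 by construction, and counts scaled to a common library size gave 86, of which 84 were among the 85. The 85 were called higher with DESeq2 1.42.0, limma voom, other scalings, no filter and each sample left out. The rule used these same counts, so these calls, here and in the paired fit below, test nothing. A minimum of 10 counts in every sample left no member to test. Higher neighbours numbered 7 within 20000 bases and 49 within 500000, 30 with DESeq2, and 22 to 27 with 1 sample left out. Member regions lower in KO numbered 9 in the start windows described above, where 10 were tested, and 14 to 17 with 1 sample left out. The mean KO minus control difference was -23.9 points with at least 20 calls, on 15 regions, and -27.9 to -25.2 with 1 sample left out. Over single positions with at least 5 calls in every sample it was -24.1 points, on 17 regions. Adult minus control was -5.24 points in the start windows and -5.11 over single positions, and -4.01 to -2.50 with 1 sample left out. The cause of these shifts was not tested beyond the change in what was counted.

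With the replicate number as a block, the paired fit called 85 members, 20 neighbours and 16 regions, and the paired mean difference was -26.8 points. Correlations of deviations between same-numbered RNA samples were -0.236, -0.0653 and -0.124, and between RNA samples of different number -0.00727 to 0.145. Between same-numbered RRBS samples they were -0.00680, 0.0131 and 0.000141. With 3 samples per group these values cannot show whether the numbers pair the samples. Among named neighbours, Frmd3 lost its call with the block, and Frmd3, Rasef, Sptssb and E330021D16Rik each lost it without 1 or more single samples. Depth limits the methylation result to 18 of 59 located genes.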

Other observations

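Several member promoters belong to other sequence families that the count limits picked out only in part. The promoter of Gm4302 on chromosome 10 resembled 5 others on that chromosome, of which 3 were in the count files and none was tested. That of Gm10439 on chromosome X resembled 10 others on X, all 10 with at most 5 control counts, of which 3 had a count in each KO sample. That of Gm4858, or Tdpoz8, resembled 3 others, all with at most 5 control counts and a count in each KO sample. No share over all genes stands beside these numbers of genes. Gm11487 and Gm11756, which lie on chromosome 4, were 94.96% identical over 258 columns, and Gm428, with no control count and 19, 16 and 18 in KO, was 97.7% identical to Gm11487.

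Of the 2 neighbours lower in KO, Galnt9, 58647 bases from Gm32996, had 65, 43 and 42 control counts and 9, 7 and 5 in KO (log2 fold change -2.66, edgeR adjusted p = 0.00286), and its groups did not overlap. E330021D16Rik, 70329 bases from Gm8994, had 87, 22 and 187 control counts and 11, 9 and 9 in KO (edgeR adjusted p = 0.0187). Sptssb, 93445 bases from Gm17895, had its highest KO count in KO 1, at 1331, and lost its call without control 1 (adjusted p = 0.0733). No explanation was tested for these values.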
